A study of Mus musculus with 10 samples.

Results

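The genes described here encode products of tissue macrophages and of sinusoidal endothelium that take up or tag material for clearance: Lyz2, Cd68, Ptprc, Fcrls, Stab2, Stab1, Csf1r, Mrc1, C1qa and C1qb. Of these 10 genes, 8 had a probe annotated with that symbol alone, out of 18069 genes with such a probe. Each of the 8 had 1 such probe, so no choice between probes was needed, and a further probe annotated with both Fcrls and Hba-a1 was left out. No probe carried Cd68 or Csf1r as its only symbol, and these 2 genes were not analysed here. The genes were chosen by their measured levels in Dox(+) and Dox(-) EBs on these same arrays, so their Dox differences are given as a description without a test.

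Total RNA from 5 groups, with 2 arrays in each, was hybridised to 1-colour CodeLink mouse arrays. Dox(+) EBs and Dox(-) EBs were day 13 embryoid bodies of tet-pdx1/ngn3 cells, which are Ainv18 mouse ES cells carrying a doxycycline-inducible Pdx1-IRES-Ngn3 cassette. Both EB groups received activin A at 50 ng/ml from day 2 and BMP4 at 50 ng/ml with bFGF at 10 ng/ml on day 4, and only Dox(+) EBs received doxycycline, at 1 µg/ml from day 4. The other groups were βTC6 cells, a mouse insulinoma line, whole islets and E15.5 embryonic pancreas. The islets are called adult in the text of the study but are headed E15.5 in its supplement. They carry no age in the labels, so their age is not settled here. EBs, islets and embryonic pancreas are mixtures of cells, whereas βTC6 is a cultured line, so that a lower level in a mixture can mean fewer cells of a type or less RNA per cell and these cannot be told apart. Another label of the EB arrays names activated Notch4 in place of Pdx1 and Ngn3, and whether the 2 arrays of a group came from separate cultures or animals is not given in the sources used here.

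Macrophages arise from blood-forming tissue under the transcription factor PU.1, the product of Spi1, and depend on signals through Csf1r. They carry the common leukocyte antigen CD45 (Ptprc) and the mannose receptor (Mrc1), and they make lysozyme (Lyz2) and most of the C1q that starts the classical complement cascade. The stabilins are large scavenger receptors of sinusoidal endothelium, where Stab2 clears hyaluronan from the circulation, and Stab1 is also made by subsets of macrophages. In the embryo such cells populate the liver and other organs, the pancreas included.

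The windows before the start sites of 3 of these genes are shown because they hold GAGGAA, the core letters of the PU-box that PU.1 reads, and that of Stab2 because it does not. Each holds the 250 bases before the start from RefSeq on GRCm38.p6, and capitals mark GAGGAA or its reverse complement TTCCTC. Mrc1 (chr2:14229164-14229413, plus strand) has 3 matches, Fcrls (chr3:87263525-87263774, minus strand) and C1qb (chr4:136886201-136886450, minus strand) have 1 each, and Stab2 (chr10:87007943-87008192, minus strand) has none.
Mrc1: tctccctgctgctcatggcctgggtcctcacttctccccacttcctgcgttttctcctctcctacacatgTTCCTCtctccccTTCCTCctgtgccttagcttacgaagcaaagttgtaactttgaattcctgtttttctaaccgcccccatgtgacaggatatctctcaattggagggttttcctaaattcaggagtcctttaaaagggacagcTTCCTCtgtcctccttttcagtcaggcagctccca
Fcrls: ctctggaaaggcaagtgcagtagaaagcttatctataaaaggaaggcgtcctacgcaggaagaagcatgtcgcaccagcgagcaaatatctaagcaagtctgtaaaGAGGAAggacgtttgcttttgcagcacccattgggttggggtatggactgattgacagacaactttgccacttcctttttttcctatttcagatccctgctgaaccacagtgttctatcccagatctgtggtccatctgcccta
C1qb: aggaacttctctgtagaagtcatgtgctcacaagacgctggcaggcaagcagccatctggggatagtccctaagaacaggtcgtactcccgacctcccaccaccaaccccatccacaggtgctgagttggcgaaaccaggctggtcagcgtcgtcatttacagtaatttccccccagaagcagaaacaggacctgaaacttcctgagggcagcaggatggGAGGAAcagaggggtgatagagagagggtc
Stab2: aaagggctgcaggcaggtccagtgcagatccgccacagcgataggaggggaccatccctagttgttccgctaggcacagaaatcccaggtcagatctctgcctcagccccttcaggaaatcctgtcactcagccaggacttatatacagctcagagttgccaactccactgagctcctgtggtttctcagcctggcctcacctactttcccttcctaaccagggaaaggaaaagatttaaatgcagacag
The promoter table held 8 of the 10 genes and not C1qa and Csf1r. Of those 8 genes, 6 had a match on either strand in at least 1 window, which also counts Ptprc, Cd68 and Stab1, whereas Lyz2 and Stab2 had none. Over all 27025 genes of the table the share with a match was 25.9%, and over all 32851 windows it was 23.3%. No other motif was searched, and a match describes the letters of the window only.

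Levels are given relative to the median probe of the array, which is 1, and values under a floor of 0.27, close to the lowest signals above background, were set to 0.27 before log2 was taken. The 10 arrays had 23070 to 25993 probes above background, and the 2 arrays of a group correlated at 0.989 to 0.996. The probe for the induced gene Pdx1 gave no signal above background on the 4 EB arrays, and that for Neurog3 (Ngn3) read 0.447 and 0.557 in Dox(+) EBs, against 0.458 and 0.520 in Dox(-) EBs, so neither shows the induction, and whether they read the transcript of the cassette is not known. The slides of the EBs, of E15.5 pancreas, and of βTC6 cells with islets were numbered in separate ranges, so slide batch and tissue cannot be told apart between those 3 sets.

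Every one of the 8 genes had a lower mean level with Dox than without it. For 7 of them the arrays of the groups did not overlap, but the share of all probes that separate this way was not counted. The differences spanned 5.62-fold for Mrc1 to 39.1-fold for Stab2 among those 7, whereas Ptprc was at or near background in both groups. Of all 28109 probes tested, 22.5% were lower and 20.7% higher with Dox at a limma adjusted p under 0.05. The 7 genes were also on the lower side of that threshold, which is given without weight because the list rests on this contrast. The median log2 difference of the 8 genes was -3.19, against -0.03 for all probes tested.

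The stabilins differed in the size of their Dox difference. Stab2 (probe 248025) read 0.398 and 0.366 in Dox(+) EBs, against 15.6 and 14.2 in Dox(-) EBs, a log2 difference of -5.29 with a standard error of 0.12. It was therefore just above the floor with Dox and among clearly measured genes without it. Stab1 (probe 248011) read 5.54 and 4.55 in Dox(+) EBs, against 34.1 and 24.5 in Dox(-) EBs, making it 5.76-fold lower with a log2 difference of -2.53 and a standard error of 0.16. Unlike Stab2, it stayed well above background on both Dox(+) arrays. Mrc1 (probe 318093), the mannose receptor, read 0.305 and a background value in Dox(+) EBs, against 1.74 and 1.49 in Dox(-) EBs, so its log2 difference of -2.49 (standard error 0.14) depends on the floor.

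The listed C1q chains, C1qa and C1qb, were lower with Dox, although only C1qb had its highest group mean in Dox(-) EBs. C1qb (probe 382101), the B chain, read 2.01 and 1.56 in Dox(+) EBs, against 45.8 and 40.2 in Dox(-) EBs, making it 24.2-fold lower with Dox (log2 difference -4.60, standard error 0.13). C1qa (probe 377023), the A chain, read 1.72 and 1.60 in Dox(+) EBs, against 11.9 and 10.6 in Dox(-) EBs, making it 6.75-fold lower (log2 difference -2.75, standard error 0.16). Both remained above background on both Dox(+) arrays, and on neither gene did an array of one group reach the other group.

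The leukocyte genes differed from each other. Fcrls (probe 347036), a receptor-like gene of mouse macrophages and microglia, read 0.452 and 0.446 in Dox(+) EBs, against 12.8 and 12.3 in Dox(-) EBs, making it 27.98-fold lower with Dox (log2 difference -4.81, standard error 0.19). Lyz2 (probe 374002), the lysozyme of macrophages and neutrophils, read 0.616 and 0.556 in Dox(+) EBs, against 7.97 and 6.56 in Dox(-) EBs, making it 12.4-fold lower (log2 difference -3.63, standard error 0.14). The transcripts of Lyz2 and its neighbour Lyz1 are near-identical, so the 2 probes may share signal. Ptprc (probe 380033), which encodes CD45 and is carried by white blood cells, was at background on both Dox(+) arrays and on 1 Dox(-) array, with 0.390 on the other. Its groups overlapped, and the log2 difference was -0.27 with a standard error of 0.22.

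**Figure D1:**
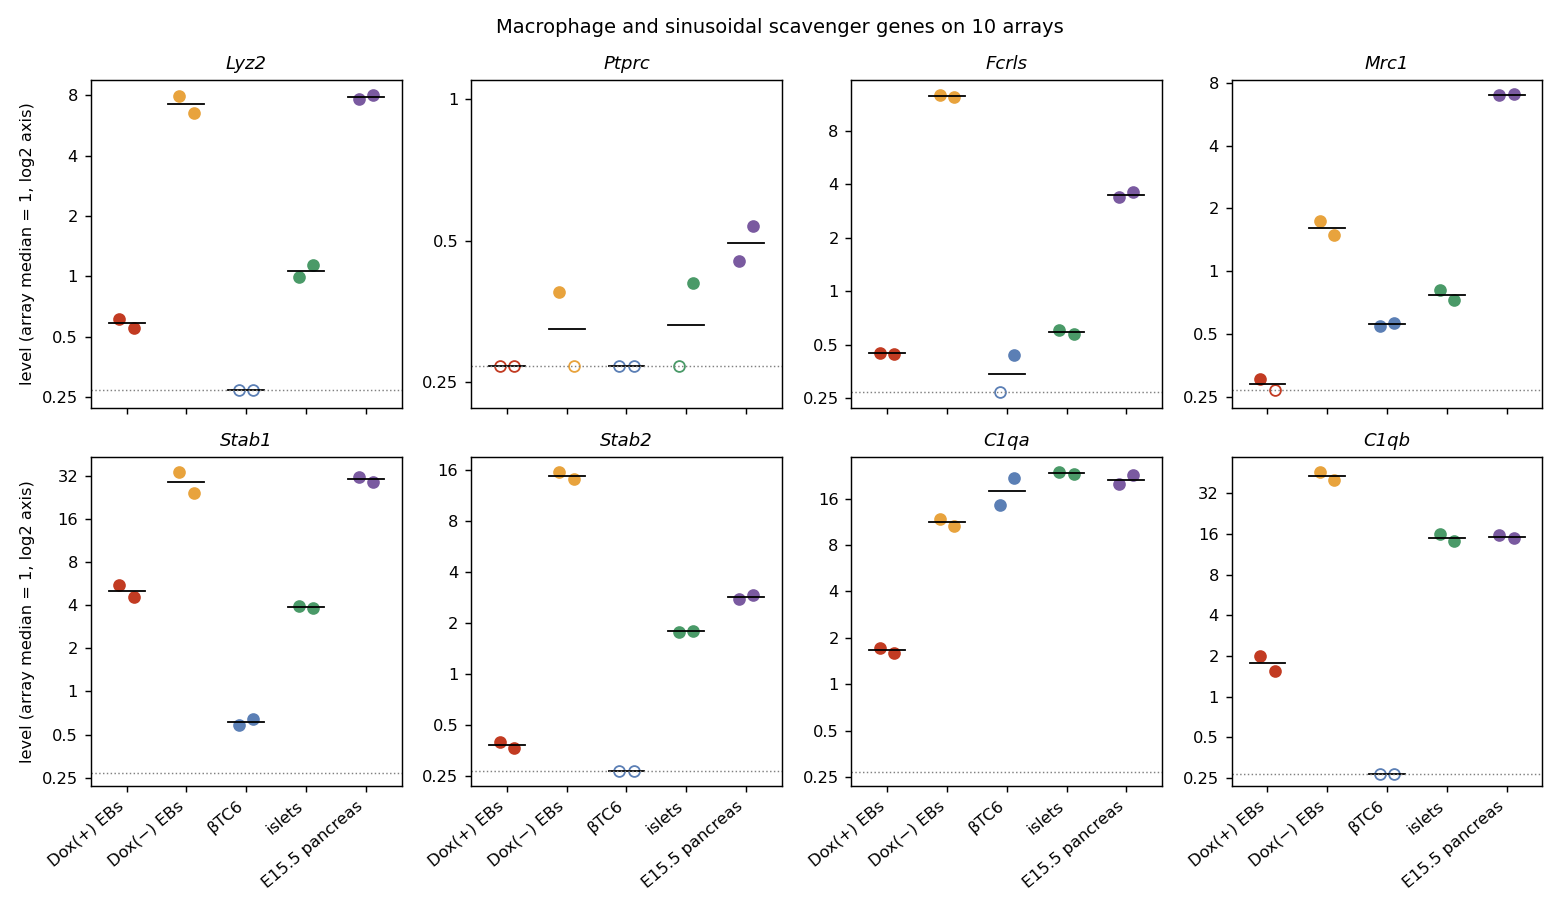
Level of each of the 8 genes on every array (array median = 1, log2 axis) with the EB groups on the left, then βTC6, islets and E15.5 pancreas. Points stand for single arrays, hollow ones are at background, short lines are group means of log2 levels and dots mark the floor at 0.27. Apart from Ptprc, both Dox(+) points lie below both Dox(-) points in every panel.

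Other genes of macrophages and monocytes were lower with Dox as well, although not all of them. From 36 further genes listed, 33 had a probe and 28 were tested: 17 were lower in Dox(+) EBs, 1 was higher (Csf2ra, lost without Dox(+) or Dox(-) replicate 1) and 10 did not pass the test, and their median log2 difference was -1.49, where 22.5% of all probes were lower and 20.7% higher. With a floor of 1 the count lower was 11 and the median -0.25, and 7 were lower among probes above background on all arrays. Tyrobp, the adaptor DAP12, fell to 0.934 and 0.771 in Dox(+) EBs, against 20.9 and 20.0 in Dox(-) EBs (24.1-fold, adjusted p = 1.81e-09). Ctss, the lysosomal protease cathepsin S, fell to 0.774 and 0.469 in Dox(+) EBs, against 17.1 and 15.9 in Dox(-) EBs (27.4-fold, adjusted p = 1.45e-08). These are changes of the same order as those of C1qb and Fcrls. Fcer1g, the signalling chain of Fc receptors, was 21.6-fold lower (adjusted p = 4.12e-09) and Fcgr3, a low-affinity IgG receptor, 9.38-fold lower (adjusted p = 1.72e-08). Adgre1, which encodes the macrophage antigen F4/80, was at background on both Dox(+) arrays and read 0.577 and 0.512 in Dox(-) EBs, so it was lower by at least 2.01-fold (adjusted p = 0.00252, lost with a floor of 0.1 or with normexp). Itgam, the integrin CD11b, was at background on all 4 EB arrays. The summed level of the 26 of these 28 genes with a value on all 4 EB arrays was 33.6 and 30.5 in Dox(+) EBs, against 110.3 and 105.7 in Dox(-) EBs.

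Transcription factors and growth factors of the lineage were lower with Dox or did not pass the test. Among 10 tested, 5 were lower, none was higher and 5 did not pass (median log2 difference -0.46), where 22.5% of all probes were lower and 20.7% higher. With a floor of 1 the count lower was 3, without Irf8 (median -0.29). Spi1 read 4.51 and 3.41 in Dox(+) EBs, against 4.75 and 5.24 in Dox(-) EBs, a log2 difference of -0.35 that did not pass the test (adjusted p = 0.0635). It passed at -0.41 with quantile normalization and at -0.55 without Dox(+) replicate 1. Its probe read 4.96 and 5.14 in βTC6 cells, in which Stab2, Lyz2 and C1qb were at background. Cebpa, a factor of myeloid cells and hepatocytes, fell to 0.496 and 0.411 in Dox(+) EBs, against 3.98 and 4.69 in Dox(-) EBs (9.57-fold, adjusted p = 6.49e-08). Irf8, a factor of monocytes and dendritic cells, was at background on both Dox(+) arrays and was at least 3.93-fold lower (adjusted p = 3.39e-06), while Cebpb fell 1.94-fold and the growth factor Csf3 1.49-fold. Of the Csf1r ligands, Csf1 read 1.07 and 0.948 in Dox(+) EBs, against 1.13 and 1.54 in Dox(-) EBs (adjusted p = 0.0706, a difference that passed without Dox(-) replicate 1), and Il34 was at background on every array.

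Complement genes changed in both directions. Of 11 tested, 7 were lower with Dox, 1 was higher and 3 did not pass the test (median log2 difference -0.76), where 22.5% of all probes were lower and 20.7% higher. This count rests on low levels, since 4 were lower and 2 higher with a floor of 1 (median -0.13), which ended the calls of C1ra and Cfi below, and none was lower among the 4 whose probes were above background on all arrays. C1qc, the third chain of C1q, fell to 0.915 and 0.788 in Dox(+) EBs, against 18.9 and 19.2 in Dox(-) EBs (22.4-fold, adjusted p = 6.93e-10). C3ar1, the receptor for the C3a fragment, fell 12.9-fold (adjusted p = 1.33e-07), the protease C1ra 3.79-fold (adjusted p = 4.92e-05) and Cfi, a protease that inactivates C3b and is made in liver, 4.21-fold (adjusted p = 2.27e-05). Serping1, the inhibitor of C1r and C1s, rose to 23.6 and 17.8 in Dox(+) EBs, against 4.55 and 5.03 in Dox(-) EBs (4.29-fold, adjusted p = 9.72e-07).

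Other scavenger and endocytic receptors changed in both directions, with 42.1% of those tested lower with Dox and 15.8% higher. Of all probes, 22.5% were lower and 20.7% higher. Among 19 tested, 8 were lower with Dox, 3 were higher and 8 did not pass the test (median log2 difference -0.37), and the count lower was 4 or 5 when any 1 EB array was left out and 4 with a floor of 1 (median 0.00). Marco, a macrophage receptor for bacteria and particles, fell to 1.22 and 1.19 in Dox(+) EBs, against 5.47 and 4.33 in Dox(-) EBs (4.04-fold, adjusted p = 2.36e-06). Msr1, the class A receptor for modified lipoproteins, fell 1.63-fold, Cd163, the haemoglobin receptor, 1.59-fold, Lrp1 1.66-fold and Colec12 1.26-fold. The call of Cd163 was lost without any 1 EB array, that of Colec12 without Dox(+) replicate 1 or Dox(-) replicate 2, and that of Scarb2 below without Dox(-) replicate 1. Megf10, an engulfment receptor, rose to 4.17 and 3.58 in Dox(+) EBs, against 0.990 and 0.938 in Dox(-) EBs (4.01-fold, adjusted p = 1.49e-06), and Scarb2, a lysosomal membrane protein, rose 1.35-fold. Lyve1, a hyaluronan receptor of lymphatic and sinusoidal endothelium, rose to 8.00 and 7.87 in Dox(+) EBs, against 2.50 and 2.81 in Dox(-) EBs (2.99-fold, adjusted p = 6.75e-07). By this probe it moved opposite to Stab1 and Stab2. The Lyve1 probe also read a mean of 11.3 in βTC6 cells, above both EB groups, and what it reads there was not tested.

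Endothelial genes changed in both directions. Of 23 tested, 6 were lower with Dox, 4 were higher and 13 did not pass the test, shares of 26.1% and 17.4% that are near the 22.5% and 20.7% of all probes, and their median log2 difference was -0.11. The endothelial adhesion genes Pecam1 (2.04-fold, adjusted p = 0.000149) and Cdh5 (at least 2.21-fold, adjusted p = 0.000254, lost with a floor of 1) rose, as did Emcn (2.83-fold), while Vwf, which is also made by megakaryocytes, fell 5.99-fold (adjusted p = 8.18e-08), Plvap 1.84-fold and Robo4 1.40-fold. Kdr, the main VEGF receptor, read 20.3 and 19.7 in Dox(+) EBs, against 16.7 and 17.0 in Dox(-) EBs (adjusted p = 0.193, although it passed when the EB groups were fitted alone). Signal differed among further genes of sinusoids. Clec4g was at background on every array, and Fcgr2b was above background in EBs only on 1 Dox(-) array. By contrast, Ehd3 (means of 15.6 in Dox(+) and 16.9 in Dox(-) EBs), Flt4 (3.72 and 4.99) and Oit3 (1.83 and 2.52) were above background on all 4 EB arrays. Of these only Flt4 passed the test, as lower with Dox. Relative to βTC6 cells, Oit3 was higher in both EB groups, whereas Ehd3 and Flt4 were higher in neither. The summed level of the 23 genes was 156 and 147 in Dox(+) EBs, against 167.4 and 158.9 in Dox(-) EBs.

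Of 20 genes of other blood cells with a probe, 9 were at background on all 4 EB arrays, 10 were above it on all 4 and S100a8 on 3. Of 18 tested, 4 were lower with Dox, 1 was higher and 13 did not pass the test (median log2 difference 0.00). The share lower, 22.2%, was near the 22.5% of all probes, and 5.56% were higher, against 20.7% of all probes. Mpo and Elane, which neutrophil precursors make, gave background values on the 4 EB arrays, and the T cell gene Cd3e was at background on every array. Lyz1, which is listed here as a gene of other secretory and blood cells, was 7.51-fold lower with Dox (adjusted p = 1.47e-08), Cd79a 1.57-fold, Kit 1.54-fold and Cma1 1.39-fold lower, and Prtn3 2.00-fold higher, with the call of Cma1 lost without Dox(+) replicate 1 or either Dox(-) array. Other lineages moved with the same contrast: 7 of 8 hepatocyte genes were lower and 1 was higher, with summed levels of 247.7 and 230.8 in Dox(+) EBs, against 667 and 638.4 in Dox(-) EBs. Without Ttr, the gene that was higher and whose spots were saturated on both Dox(+) arrays, the sums were 62.2 and 51.8 in Dox(+) EBs, against 531 and 512 in Dox(-) EBs. Afp was saturated on both Dox(-) arrays, so the Dox(-) sums with and without Ttr are lower bounds. All 10 endocrine genes tested were higher. The shares to set beside the hepatocyte and endocrine counts are again 22.5% of all probes lower and 20.7% higher. The part of these shifts in the levels of the macrophage genes was not tested.

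**Figure D2:**
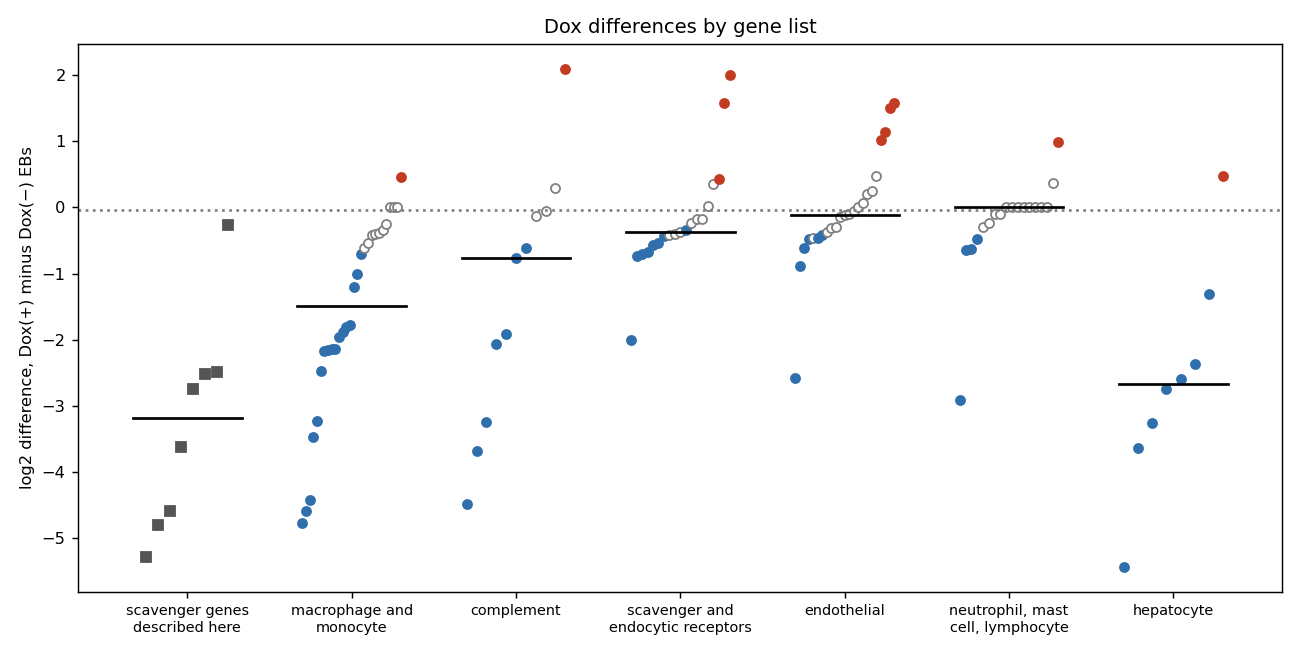
Log2 difference, Dox(+) EBs minus Dox(-) EBs, of the 8 genes (grey squares, no test given) and of the tested genes of 6 lists. Red points were higher and blue points lower at a limma adjusted p under 0.05, hollow points did not pass, bars are list medians and the dotted line is the median of all probes tested (-0.03). The macrophage list has a median of -1.49 and the endothelial list one of -0.11.

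In the reference tissues these genes did not form 1 pattern. The means compared among βTC6 cells, islets and E15.5 pancreas use no EB array. The spread behind their p-values and the choice of probes to test do use the EB arrays. The islet arrays also carried acinar signal, as the levels of 5 acinar genes summed to 1234 and 1012 there. Those sums were 733.7 and 707 in E15.5 pancreas and 2.59 and 2.48 in βTC6 cells. What acinar tissue adds to the islet levels below was not tested. In βTC6 cells relative to islets, 6 of the 8 genes were lower and none was higher, where 27.0% of all probes were lower and 39.1% higher. In βTC6 cells relative to E15.5 pancreas, 7 were lower and none higher, against 23.7% and 41.8% of all probes. In islets relative to E15.5 pancreas, 6 were lower and none higher, against 32.5% of all probes in each direction. The stabilins, Mrc1, Lyz2, Fcrls and Ptprc thus had their highest tissue level in E15.5 pancreas. Ptprc is in both counts lower than E15.5 pancreas and was tested only through its signal in that tissue.

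Mrc1, Lyz2 and Stab1 were lower in islets and in βTC6 cells than in E15.5 pancreas. Mrc1 read 0.546 and 0.564 in βTC6 cells, 0.809 and 0.724 on the islet arrays and 6.99 and 7.04 on those of E15.5 pancreas. Islets were 9.17-fold below E15.5 pancreas (adjusted p = 9.56e-09) and βTC6 cells 12.6-fold below it (adjusted p = 3.19e-09). Dox(+) EBs had the lowest level of the 5 groups. Lyz2 was at background in βTC6 cells, read 0.992 and 1.14 in islets, with 7.71 and 8.08 in E15.5 pancreas, with islets 7.43-fold (adjusted p = 1.78e-08) and βTC6 cells at least 25.1-fold below E15.5 pancreas (adjusted p = 3.69e-10). Stab1 read 0.583 and 0.646 in βTC6 cells, 3.99 and 3.81 on the islet arrays and 31.6 and 29.1 on those of E15.5 pancreas, with islets 7.77-fold (adjusted p = 4.03e-08) and βTC6 cells 49.4-fold below E15.5 pancreas (adjusted p = 3.24e-10).

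Stab2 and Fcrls were lower in these tissues than in Dox(-) EBs. Stab2 was at background in βTC6 cells and read 1.79 on both islet arrays and 2.78 and 2.96 in E15.5 pancreas, so that islets were 1.60-fold below E15.5 pancreas (adjusted p = 0.000417). Fcrls read a background value and 0.437 in βTC6 cells, 0.603 and 0.575 on the islet arrays and 3.41 and 3.60 on those of E15.5 pancreas, with islets 5.95-fold below E15.5 pancreas (adjusted p = 6.45e-07). Ptprc was at background in βTC6 cells and on 1 islet array, with 0.405 on the other, and read 0.453 and 0.538 in E15.5 pancreas. Ptprc was tested only because both E15.5 pancreas arrays were above background. Islets and E15.5 pancreas differed for it by a log2 of -0.58 (adjusted p = 0.0416). That call was lost without islet replicate 1 or without either E15.5 pancreas array. It was also lost in the limma fit with no filter on background (adjusted p = 0.122). Ptprc was above background on 4 of the 10 arrays in all.

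The 2 C1q genes with a probe among those listed separated in βTC6 cells. C1qb was at background on both βTC6 arrays and read 15.9 and 14.2 in islets, with 15.6 and 15.0 in E15.5 pancreas. C1qa read 14.6 and 21.7 in βTC6 cells, 23.7 and 22.98 on the islet arrays and 19.8 and 22.8 on those of E15.5 pancreas. C1qc followed C1qb, being at background on both βTC6 arrays with 8.20 and 7.09 in islets, with 10.2 and 10.4 in E15.5 pancreas. βTC6 cells were thus at least 48.7-fold below E15.5 pancreas for C1qb (adjusted p = 7.83e-11) and at least 32.7-fold below it for C1qc (adjusted p = 6.64e-11), whereas for C1qa the log2 difference was -0.25 with a standard error of 0.16 (adjusted p = 0.188). With quantile normalization that C1qa difference was -0.79 and passed the test, still far from those of the other chains. What the C1qa probe reads in βTC6 cells was not tested.

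**Figure D3:**
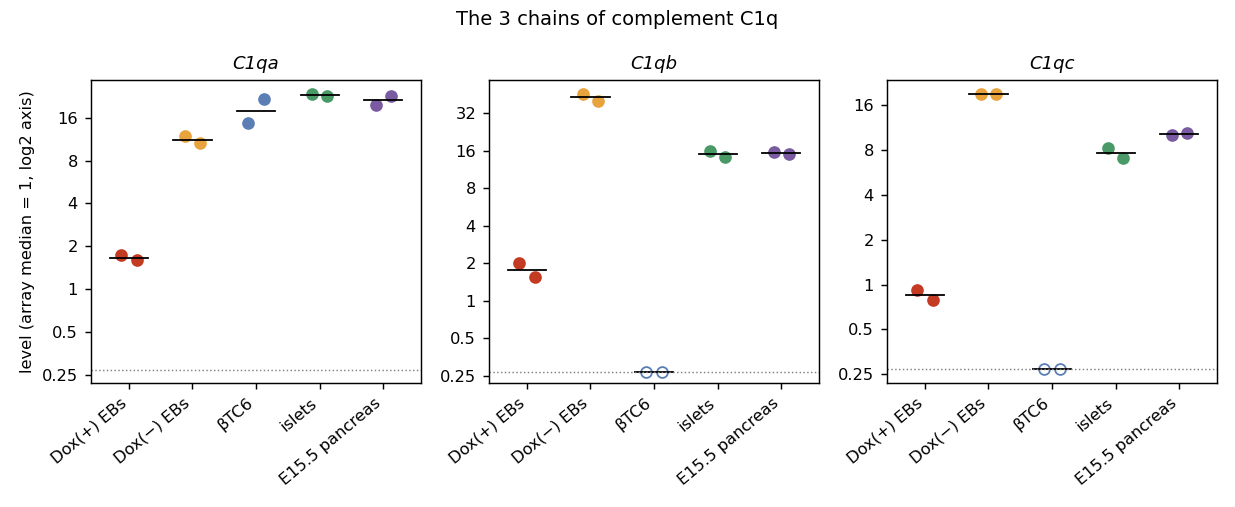
Level of the 3 C1q chains on every array (array median = 1, log2 axis), with groups ordered as in the plot of all 8 genes. Points, lines, hollow points and the floor are drawn the same way. The βTC6 arrays are at the floor for C1qb and C1qc and at 14.6 and 21.7 for C1qa.

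Dox(-) EBs were set against the same tissues next. These comparisons, like those of Dox(+) EBs, share the EB arrays on which the genes were listed, and their p-values do not allow for that. Relative to E15.5 pancreas, 3 of the 8 genes were higher in Dox(-) EBs, 3 were lower and 2 did not pass the test, where 33.6% of all probes were higher and 24.8% lower. Stab2 was 5.20-fold higher in Dox(-) EBs than in E15.5 pancreas (adjusted p = 6.83e-08), Fcrls 3.59-fold higher (adjusted p = 1.63e-05) and C1qb 2.80-fold higher (adjusted p = 4.78e-06). Mrc1 was 4.35-fold lower in Dox(-) EBs (adjusted p = 5.45e-07) and C1qa 1.89-fold lower (adjusted p = 0.000599). Ptprc was 1.52-fold lower (adjusted p = 0.0378), a call lost without Dox(-) replicate 2 or either E15.5 pancreas array. The Ptprc call was also lost in the limma fit with no filter on background (adjusted p = 0.117). Lyz2 and Stab1 read nearly the same in both, with log2 differences of -0.13 (standard error 0.14, adjusted p = 0.458) and -0.07 (standard error 0.16, adjusted p = 0.742), and their arrays overlapped. The genes therefore did not lie at a common multiple of their E15.5 pancreas level.

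Relative to islets, 6 of the 8 genes were higher in Dox(-) EBs and 1, C1qa, was lower, against 37.7% and 32.3% of all probes. The excess over islets was 21.3-fold for Fcrls, 8.33-fold for Stab2, 7.40-fold for Stab1, 6.80-fold for Lyz2, 2.85-fold for C1qb and 2.11-fold for Mrc1. Relative to βTC6 cells, 6 were higher and C1qa was lower, against 28.7% and 37.9% of all probes, and the excess was at least 137-fold for C1qb and at least 47.4-fold for Stab2. The lower C1qa level in Dox(-) EBs than in βTC6 cells (1.59-fold, adjusted p = 0.00357) did not pass the test after quantile normalization.

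Dox(+) EBs lay below E15.5 pancreas for all 8 genes, where 26.9% of all probes were lower and 33.1% higher. Among them, Ptprc was tested only through its signal in E15.5 pancreas. The deficit was 24.4-fold for Mrc1, 13.5-fold for Lyz2, 12.8-fold for C1qa, 8.65-fold for C1qb, 7.80-fold for Fcrls, 7.51-fold for Stab2 and 6.04-fold for Stab1, and Ptprc was at least 1.83-fold lower (adjusted p = 0.00623, lost without E15.5 pancreas replicate 2). Relative to islets, 5 genes were lower in Dox(+) EBs and none was higher, against 31.6% and 36.4% of all probes, and C1qa had the largest of these differences at 14.0-fold. Stab1 was 1.29-fold higher in Dox(+) EBs than in islets, which did not pass the test (adjusted p = 0.0579) but passed without Dox(+) replicate 2. Fcrls and Ptprc did not pass it either (adjusted p = 0.0937 and 0.269).

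Against βTC6 cells, Dox(+) EBs were higher for 4 genes and lower for 2, where 25.5% of all probes were higher and 37.4% lower. Stab1 was 8.18-fold higher, C1qb at least 5.64-fold, Lyz2 at least 1.86-fold and Stab2 at least 1.21-fold higher in Dox(+) EBs, while C1qa was 10.7-fold and Mrc1 1.93-fold lower. Fcrls did not pass the test (adjusted p = 0.103), although it did without βTC6 replicate 2, and Ptprc was at background on all 4 arrays of that comparison. In Dox(+) EBs, 6 of the 8 genes were above background on both arrays, Mrc1 on 1 and Ptprc on none.

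**Figure D4:**
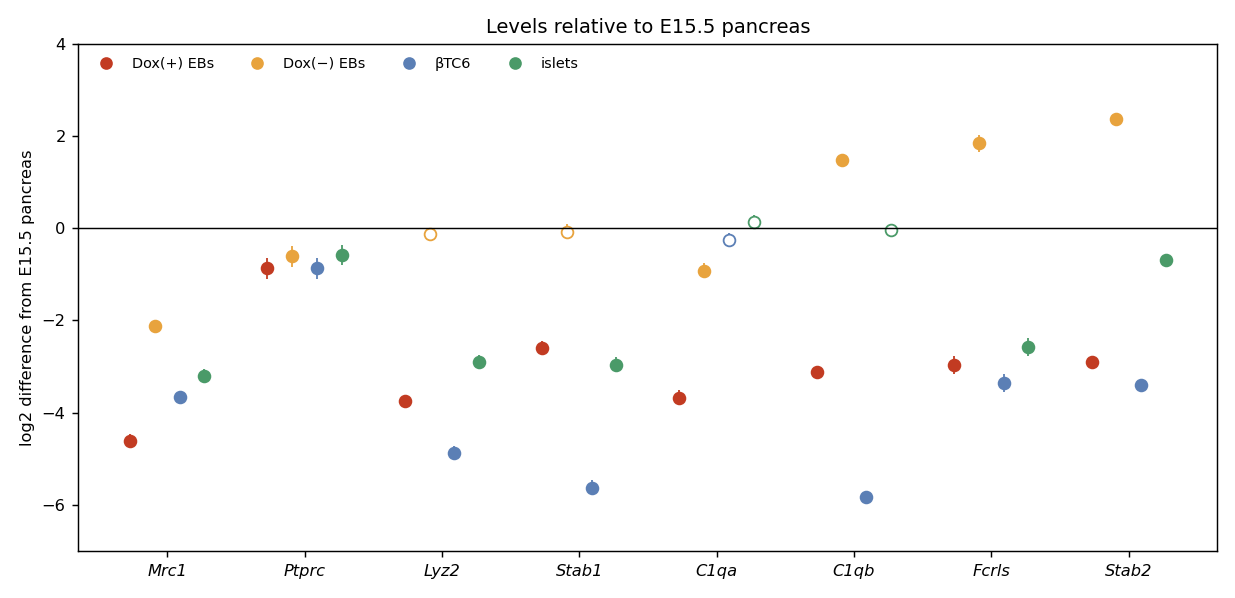
Log2 difference of each gene from E15.5 pancreas, with the limma standard error as a bar, from left to right for Dox(+) EBs, Dox(-) EBs, βTC6 and islets. Filled points passed an adjusted p under 0.05 and hollow points did not. Dox(-) EBs lie above E15.5 pancreas for C1qb, Fcrls and Stab2 and below it for Mrc1, while all Dox(+) points lie below 0.

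The order of the groups was read from the same fit. E15.5 pancreas had the highest mean for Mrc1, Ptprc, Lyz2 and Stab1, and in the last 2 of these Dox(-) EBs followed without a difference beyond the spread. Dox(-) EBs had the highest mean for Stab2, Fcrls and C1qb, with E15.5 pancreas next. For C1qb, E15.5 pancreas and islets did not differ beyond their spread (adjusted p = 0.897). For C1qa the islets, E15.5 pancreas and βTC6 cells, in that order, had neighbouring means that did not differ (adjusted p = 0.486 and 0.188), and the EBs came last. βTC6 cells had the lowest mean for Lyz2, Fcrls, Stab2, Stab1 and C1qb.

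The ligand Csf1, whose tissue values were looked at after its Dox result, was distributed differently from Mrc1, Lyz2 and Stab1. It read 12.4 and 13.2 in βTC6 cells, 55.5 and 60.6 on the islet arrays and 1.85 and 1.52 on those of E15.5 pancreas. Islets were thus 34.6-fold above E15.5 pancreas (adjusted p = 8.03e-10), the reverse of the direction of Mrc1, Lyz2 and Stab1. Macrophage genes had no common direction there, as C1qa and C1qb did not differ between these tissues. Of the 28 other macrophage and monocyte genes tested, 7 were higher in islets and 11 lower, against 32.5% of all probes in each direction. Among 15024 genes measured on all arrays, the 5 whose log2 levels ran closest to those of Stab2 were Sema3b (Pearson r = 0.992), Ighm (0.991), Hspb2 (0.991), Fcer1g (0.990) and Evi2 (0.988). These values describe 10 arrays in 5 groups that share their tissue and slides, and only Fcer1g is in a list used here. Sema3b, for example, read 0.302 and 0.312 in Dox(+) EBs, 2.33 and 3.33 in Dox(-) EBs, 0.892 and 0.921 in islets, with 0.999 and 1.07 in E15.5 pancreas, and was at the floor in βTC6 cells.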

How the data were processed

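Each deposited file holds the intensity of every spot of 1 array. The authors' scanning software was CodeLink Expression Analysis 4.1.0.29054 per the submitters' processing notes, and its background-corrected signal divided by the array median was taken unchanged. Of 36227 spots, 1260 control spots were left out, and contaminated, irregular or masked spots were set missing. Of the 34967 other probes, 21615 had 1 symbol, 681 several and 12671 none, by platform annotation updated through RefSeq names. The GeneSpring step named in the methods could not be repeated.

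Values were floored at 0.27, log2 transformed and fitted with 1 mean per group over all 10 arrays in limma 3.58.1 (R 4.3.3, trend and robust eBayes, 5 residual degrees of freedom). A probe was tested if at least 1 group had it above background on both arrays (28109 probes), two-sided, with Benjamini-Hochberg adjustment per contrast and a threshold of 0.05. A fold is given as at least N-fold where neither array of a group rose above background, from each array's lowest signal above background, or saturated on both. The fit was tested on simulated data. Figures were made with Python 3.11.15 and matplotlib 3.10.9.

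The genes and lists were chosen with earlier results of these data known. Named genes are all listed genes and, from each other list, its defining genes and up to 4 others with the smallest adjusted p in the Dox contrast. Csf2ra, Clec4g, Ehd3, Flt4, Oit3, S100a8, Ttr and the tissue values of Csf1, Spi1, C1qc and Lyve1 were added after their values were seen. Genes like Csf1r could not be sought without a probe. Arrays of a group are biological replicates by their labels, but separate cultures or dissections are not stated, so p-values cover only the spread between arrays, which may be technical. Alternatives tried were quantile normalization with and without normexp (offset 50), a floor of 0.1 or 1, testing all probes or only those with signal on all arrays, fitting the 2 groups alone, plain eBayes, a replicate block, keeping contaminated spots, requiring 2-fold, and omitting each array in turn.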

Additional observations from a re-analysis of the deposited data

How the results depend on the processing

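The number of arrays and a median signal of 1.66 to 2.63 times background limit the precision. Across the alternatives, 274 of the counts of the 8 genes stayed within 1.5 times their value and 26 did not, and no difference of a called gene turned its sign. In the Dox contrast the count lower with Dox was 7 in the fit given above. The genes were chosen by their levels in these EBs, so the counts of this contrast, here and below, are given without weight.

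Requiring signal above background on all arrays left only Stab1 and C1qa to test, so counts fell by construction. The counts lower were then 2 for Dox(+) minus Dox(-) EBs, 1 for Dox(+) EBs minus βTC6 cells, 1 for Dox(+) EBs minus islets, 2 for Dox(+) EBs minus E15.5 pancreas, 1 for Dox(-) EBs minus E15.5 pancreas, 2 for βTC6 cells minus islets, 1 for islets minus E15.5 pancreas and 1 for βTC6 cells minus E15.5 pancreas. The counts higher were 1 for Dox(+) EBs minus βTC6 cells, 1 for Dox(+) EBs minus islets, 1 for Dox(-) EBs minus βTC6 cells, 1 for Dox(-) EBs minus islets and 0 for Dox(-) EBs minus E15.5 pancreas. A floor of 1, above the levels of several genes, left 1 lower and 2 higher for Dox(+) EBs minus βTC6 cells, 3 lower for Dox(+) EBs minus islets and 3 lower for βTC6 cells minus islets, and it brought the Dox difference of Mrc1 to -0.69 and that of Stab2 to -3.898. With normexp these were -1.62 and -4.195. A 2-fold minimum left 1 lower for Dox(+) EBs minus βTC6 cells, 0 for Dox(-) EBs minus βTC6 cells and 1 for Dox(-) EBs minus E15.5 pancreas. The count lower for Dox(-) EBs minus βTC6 cells was also 0 with quantile normalization, with normexp and quantile normalization and with the arrays of the 2 groups alone, the gene lost being C1qa.

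Replicate numbers did not pair the arrays, as the correlation of deviations was -0.0688 to 0.0626 over the 10 pairs of groups. The replicate block gave 1 higher for Dox(+) EBs minus islets (Stab1), as did the arrays of the 2 groups alone, and the block took Ptprc from the calls of Dox(-) EBs minus E15.5 pancreas and islets minus E15.5 pancreas. With 1 array left out, an arm of 1 array is assumed to vary like the other groups. The count lower was then 7 to 7 for Dox(+) minus Dox(-) EBs, 7 to 8 for Dox(+) EBs minus E15.5 pancreas, 2 to 3 for Dox(-) EBs minus E15.5 pancreas, 5 to 7 for βTC6 cells minus islets, 7 to 8 for βTC6 cells minus E15.5 pancreas and 5 to 6 for islets minus E15.5 pancreas, and the count higher was 0 to 1 for Dox(+) EBs minus islets and 4 to 5 for Dox(+) EBs minus βTC6 cells. Mrc1 was lost from the calls of βTC6 cells minus islets without islet replicate 1, and C1qa passed against islets and against E15.5 pancreas without βTC6 replicate 2. No gene had another probe of its own to compare, so that alternative was not run. The causes were not tested beyond what is stated.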
